A study of Mus musculus with 6 samples.

Results

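The genes described here encode the proteins of the mitochondrial ribosome, as measured in the livers of 3 male mice. Members were all probes on the study's 2 expression arrays, A and B, that carried a single gene symbol starting with Mrpl or Mrps and a digit. This gave 55 probes, 29 on array A and 26 on array B, for 49 of the 7151 named genes of the arrays. RefSeq lists 78 protein-coding mouse genes that fit the same pattern, so the arrays covered part of the family. A further 4 probes that carried such a symbol beside another gene's symbol were left out.

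Each group was 1 mouse, and each liver was measured once on array A and once on array B. The 1st age group was a mouse killed at 17 days that had been fed ad libitum. The unit of that age rests on its label alone. The 2nd age group held a mouse fed ad libitum and killed at 174 days, and a mouse on caloric restriction killed at 177 days. Strain, duration of the restriction and other treatments were not given in the sources used here. With 1 mouse in each group there is no replicate, no test and no error between animals, and every value below describes these 3 livers only.

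Mitochondrial ribosomes translate the few messages of the mitochondrial genome, which encode core subunits of the respiratory chain and of ATP synthase. All of their proteins are encoded in the nucleus, made in the cytosol and imported. A large subunit joins amino acids and a small subunit reads the message. Part of the proteins in each have bacterial counterparts, and the others were added in the mitochondrial lineage. Of the 49 genes, 36 encode proteins of the large subunit and 12 of the small subunit. Mrps18a bears a small subunit name but its protein sits in the large subunit. The remaining gene, Mrps36, has a ribosomal name only, since its protein is now known as a part of the 2-oxoglutarate dehydrogenase complex.

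The deposited values are spot intensities in arbitrary units. The 174-day arrays were the dimmest of both kinds. On array A their median intensity was 35.8, against 364.3 at 17 days and 375 with caloric restriction. The arrays of each kind were therefore brought to a common distribution of log2 intensities, and levels below are on this quantile-normalized log2 scale unless raw intensity is named. Differences between mice are differences of these levels, and a gene was counted as apart at 1 log2, which is 2-fold. Probes entered the counts where their average level exceeded the 50th percentile for the array kind, which left 24 member probes of 22 genes. The nearest members on either side were the brighter Mrps7 probe, at percentile 49.8 and outside, and Mrps25, at percentile 50.6 and inside. As to the tissue, the hepatocyte markers Alb, Apoa1, Serpina1e and Ttr had entering probes, and Apob had a dimmer probe only. Between the calorie-restricted and the 174-day mouse Alb was at 1.18, Ttr at 0.26, Apoa1 at -0.01 and Serpina1e at -0.46, with a median of 0.12. Markers were measured for Kupffer cells (3 of 9), endothelium (2 of 6), stellate cells (3 of 6), cholangiocytes (3 of 5) and erythroid cells (4 of 8). Of these only 2, 1, 2, 2 and 3 entered, and none was 2-fold apart in any comparison. Over all genes with an entering probe, 1.16% were 2-fold apart between the 174-day and the 17-day mouse. The share was 6.86% between the calorie-restricted and the 174-day mouse and 1.58% between the calorie-restricted and the 17-day mouse. So few genes say little about these cells. Summed raw intensities of the hepatocyte list were 49359, 6313 and 45675 at 17 days, 174 days and with caloric restriction, and the part of cell makeup in the results was not tested. In whole liver, a lower level in the same number of cells and fewer cells with the RNA cannot be told apart.

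The mitoribosomal genes had medians near 0 in each comparison. With dim probes included, 2 of the 49 passed 2-fold between the 174-day and the 17-day mouse. Between the calorie-restricted and the 174-day mouse 3 did, and between the calorie-restricted and the 17-day mouse 1 did. The shares of all named genes past 2-fold were 3.22%, 7.44% and 1.13% in the same order. The members that passed were Mrpl50, Mrpl52, Mrps11 and Mrps15, 4 in all. Over all 49 genes, with dim probes included, the median difference was -0.08 log2 between the 174-day and the 17-day mouse, 0.05 between the calorie-restricted and the 174-day mouse and 0.03 between the calorie-restricted and the 17-day mouse. Over all 7151 genes the same medians were -0.002, -0.01 and -0.03. Without Mrpl50, single genes ran from -1.22 to 1.40. Without replicate mice, the variation between animals is unknown. The disagreement between probes for the same gene, which read the same livers, describes the spread between probes only. Over 1383 genes with exactly 2 probes, the probes of a gene differed by a median of 0.41 log2 in the first comparison, 0.55 in the second and 0.36 in the third. Of the 49 members, 13, 15 and 15 lay further from 0 than that, which is 26.5%, 30.6% and 30.6%. For all genes the shares were 27.5%, 31.1% and 31.8%.

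**Figure D1:**
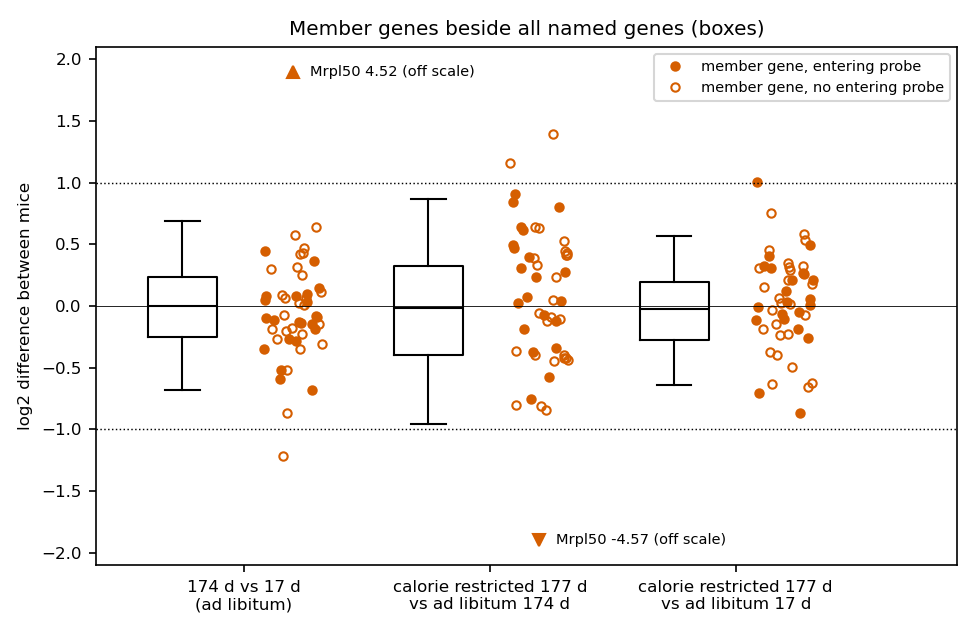
Differences in log2 intensity between mice (vertical axis) for the 3 comparisons, with all 7151 named genes as boxes (quartiles and median, whiskers from the 5th to the 95th percentile) and each of the 49 mitoribosomal genes as a point. Dotted lines mark 2-fold. Most points lie within the whiskers, and Mrpl50, at 4.52 and -4.57, is off the scale and drawn as a triangle.

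Mrpl50 encodes a large subunit protein without a bacterial counterpart, and its probes did not behave alike. The array A spot of Mrpl50 had a raw intensity of 12046 at 174 days, against 99.04 at 17 days and 106.6 with caloric restriction. It was the 2nd brightest of the 8448 spots on the 174-day array A, whose median was 35.8, and lay at percentile 11.6 and 12.8 of the same array kind in the other mice. In the order 17 days, 174 days and caloric restriction its normalized levels were 5.52, 14.46 and 5.59, and so it entered the counts through the 174-day mouse alone. The array B spot of Mrpl50 read 636.9, 109.0 and 458.0 in the same order, which are levels of 8.32, 8.42 and 8.15. Here the mice lay within 0.3 log2 of each other.

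The array A probe of Mrpl50 thus differed by 8.94 log2 between the 174-day and the 17-day mouse and by -8.87 between the calorie-restricted and the 174-day mouse, against 0.10 and -0.27 on array B. Taken as the median of both probes, Mrpl50 was at 4.52 and -4.57. Between the calorie-restricted and the 17-day mouse the probes gave 0.07 and -0.17. The disagreement of 8.84 log2 in the age comparison was the widest among the 6 members with 2 probes. The 10 spots nearest in the deposited order, 5 on each side, differed by -0.89 to 0.30 in the age comparison, and their raw intensities on the 174-day array ran from 2.63 to 597.8. The high value was thus confined to that spot among these neighbours in the deposited order. Since no layout is stated, they need not lie next to it on the array. On the 174-day array A, 99 spots lay at least 1.5 log2 from both other mice, 82 of them higher, and this spot had the largest age difference. Among probes with a single gene symbol this held for 1.38% on array A and 0.287% on array B, and the array A probe of Mrpl50 was the only one of the 55 member probes among them. Whether the array A spot holds the sequence its name gives was not tested.

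**Figure D2:**
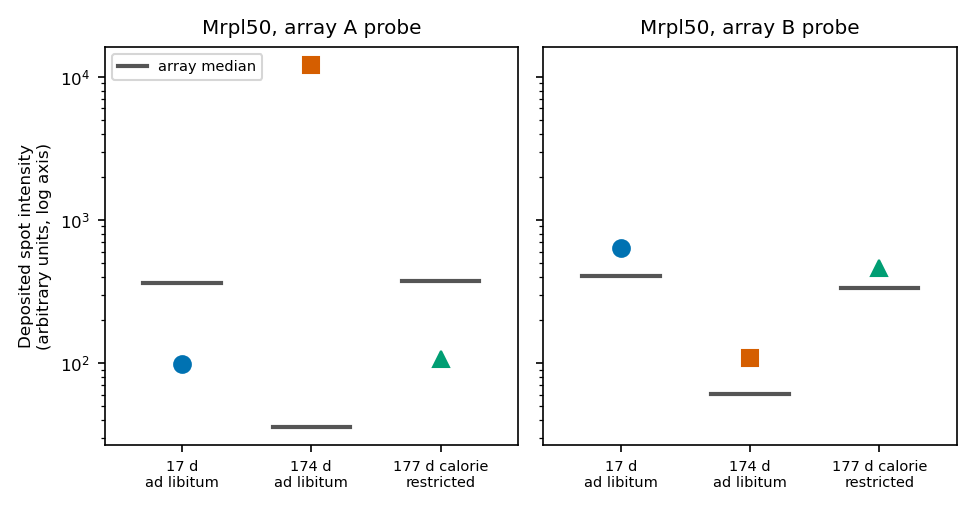
Deposited spot intensity of the Mrpl50 probes in each mouse (arbitrary units, log axis), on array A (left) and array B (right), with the array median as a grey bar. On array A the 174-day mouse reads 12046 against 99.04 and 106.6, while on array B each mouse lies a little above its array median.

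In the comparison of age, the ad libitum mouse of 174 days was set against that of 17 days. Of the 22 genes with an entering probe, 1 was at least 2-fold apart, Mrpl50, through the spot described above. The background for this count is 1.16% of all 3865 genes with an entering probe. The other 21 lay between -0.68 and 0.66, 9 above 0 and 12 below, with a median of -0.10 beside -0.03 over all genes. Of all genes with an entering probe, 46.3% lay above 0. At 1.5-fold 4 of the 22 were apart, against a background of 8.62%.

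The highest of these were Mrpl48 (0.66), Mrpl19 (0.44), Mrpl38 (0.15), a protein of the central protuberance, and Mrpl52 (0.10). Mrpl48 had levels of 7.68, 8.34 and 7.78 in the 17-day, 174-day and calorie-restricted mouse at its entering probe. Its dimmer probe, at 6.65, 6.72 and 6.54, differed by 0.07 only, so the higher value in the 174-day mouse rests on 1 probe. The lowest were Mrpl42 (-0.68), Mrpl10 (-0.59), which anchors the stalk that recruits elongation factors, Mrps25 (-0.52), Mrpl45 (-0.35) and Mrps18b (-0.29). Mrpl42 stood at 7.93, 7.25 and 7.87, and Mrpl10 at 9.28, 8.69 and 9.50. As normalized, the 174-day mouse was the low one in both, which for Mrpl42 did not hold after the correction for spot position described further on.

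Among the 27 genes without an entering probe, Mrps11, of the platform of the small subunit, was furthest down, at -1.22 with levels of 6.76, 5.55 and 6.94. Mrps15 followed at -0.87, with 6.93, 6.06 and 7.22. Both are dim spots, which in the 174-day mouse read 9.89 and 19.65 in raw intensity, and each has 1 probe. With dim probes included, 2 of 49 member genes were 2-fold apart, Mrpl50 and Mrps11, against a background of 3.22%.

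The comparison of diet set the calorie-restricted mouse against the ad libitum mouse of nearly the same age. Of the 22 genes, 14 lay above 0 and 8 below, and the median was 0.25 beside -0.04 over all genes. Of all genes with an entering probe, 47.2% lay above 0. Again 1 gene was at least 2-fold apart, Mrpl50, against a background of 6.86%. Without Mrpl50 the range was -0.75 to 0.91. At 1.5-fold 7 of the 22 were apart, against a background of 28.5%. The shift of the median was not shared by dimmer or by the brightest members. It stood 0.29 above that of all genes for the 22, but 0.06 above it when all 49 genes were taken and 0.02 above it for the 10 genes above the 75th percentile. By array kind it was 0.05 on array A (15 genes) and 0.57 on array B (8 genes). With arrays centred on their medians instead, the median of all genes moved to -0.31 and that of the 22 members to 0.01, again 0.32 apart.

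Mrpl52, a large subunit protein without a bacterial counterpart, was highest in the calorie-restricted mouse at 0.91, with levels of 8.31, 8.41 and 9.32. Mrpl45, which lies at the exit of the peptide tunnel and contacts the inner membrane, followed at 0.84. It was the one member with both probes entering in the same direction and on the same array kind. Its brighter probe stood at 9.41 in the 17-day, 9.17 in the 174-day and 9.79 in the calorie-restricted mouse, and its dimmer at 8.28, 7.82 and 8.88. The probes differed by 0.62 and 1.06 between calorie restriction and ad libitum feeding, so the calorie-restricted mouse was the high one and the 174-day mouse the low one at both.

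Mrpl10 (0.81), Mrps25 (0.64) and Mrpl42 (0.62) completed the 5 highest, and these are the genes that were low in the 174-day mouse in the age comparison, which shares that mouse. On the lower side, below Mrpl50, were Mrps9 (-0.75), a small subunit protein at the tRNA sites, Mrps18b (-0.58), Mrpl48 (-0.56) and Mrpl23 (-0.39), another protein of the tunnel exit. Mrps9 stood at 9.17, 9.22 and 8.46 and Mrps18b at 8.71, 8.43 and 7.85. As normalized, the calorie-restricted mouse was the low one at both, which for Mrps9 did not hold after the correction for spot position described further on. Of the genes with dim probes only, Mrps11 was at 1.40 and Mrps15 at 1.16, and Mrpl20 (-0.84), Mrpl44 (-0.81) and Mrps10 (-0.81) were lowest. With them, 3 of 49 genes were 2-fold apart against a background of 7.44%.

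The third comparison, of the calorie-restricted with the 17-day mouse, differs in age and diet together. It takes no difference from the 174-day mouse, but the dim 174-day arrays still shaped the common distribution and the brightness filter. It shares its mice with the other comparisons. Of the 22 genes, 15 lay above 0 and 7 below, with a median of 0.11 beside -0.09 over all genes. Of all genes with an entering probe, 41.1% lay above 0. Mrpl52 was the 1 gene at least 2-fold apart, at 1.01 and so just past the threshold, where the background was 1.58%. At 1.5-fold 3 of the 22 were apart, against 15.4%. Raw intensities of its spot were 633.5 in the 17-day, 108.4 in the 174-day and 981.5 in the calorie-restricted mouse. Mrpl52 was below 2-fold with arrays centred on their medians (0.91), after loess (0.96) and without scaling (0.63), and higher in the calorie-restricted mouse in each.

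The next highest were Mrpl45 (0.49), Mrpl27 (0.41), which lies near the catalytic centre of the large subunit, Mrpl1 (0.33), of the stalk where spent tRNA leaves, and Mrpl32 (0.31). Mrpl1 was at -0.06 with median centring and -0.33 without scaling. The lowest were Mrps18b (-0.86), Mrps9 (-0.70), Mrpl23 (-0.32), Mrpl17 (-0.26) and Mrps18a (-0.12). With all 49 genes, Mrpl52 remained the 1 gene past 2-fold, beside 1.13% of all genes.

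**Figure D3:**
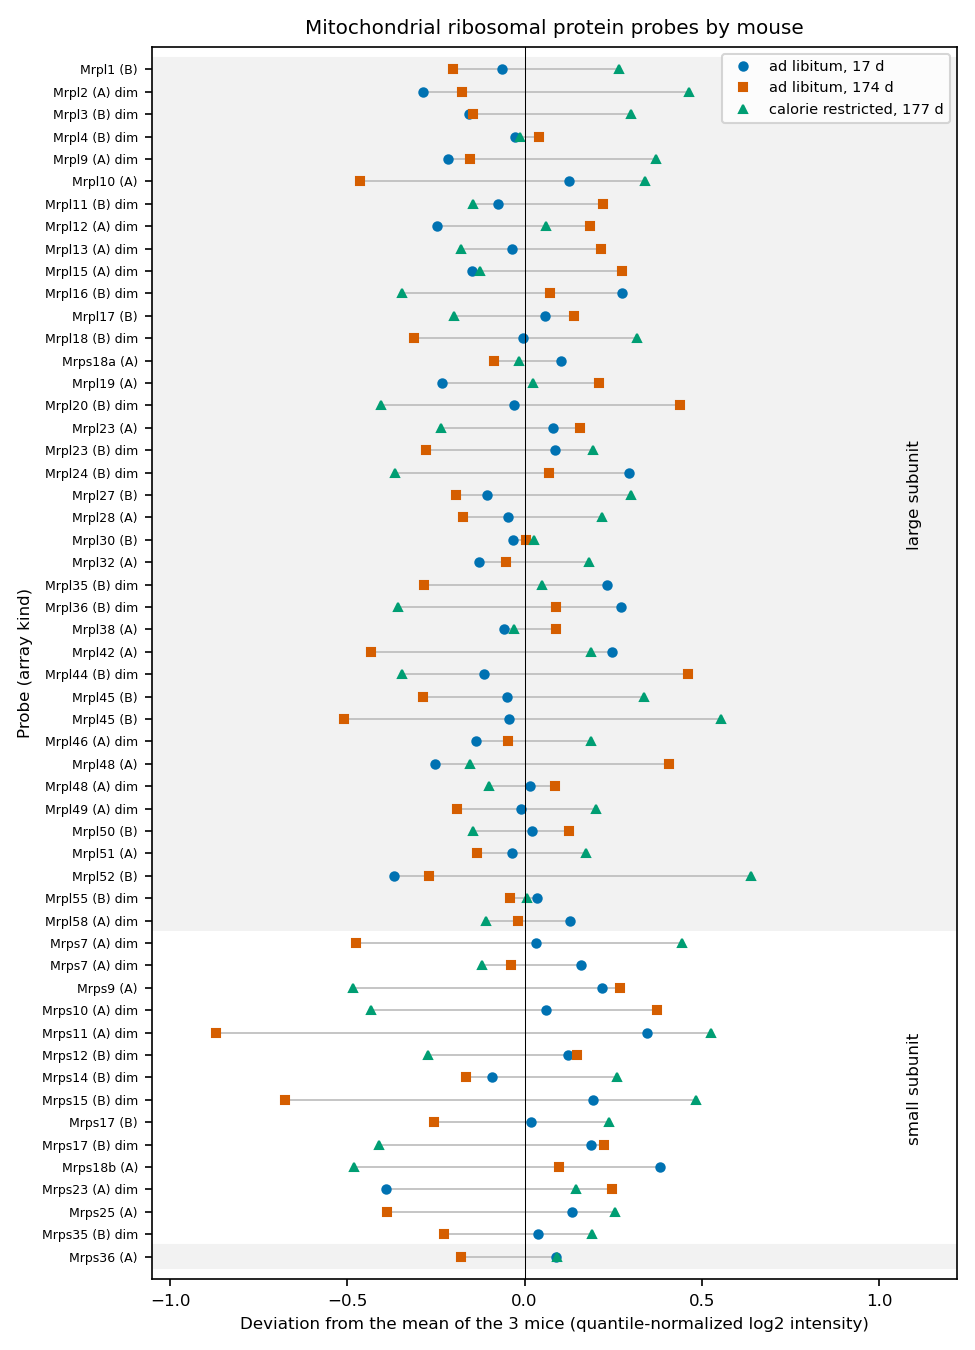
Deviation of each mouse from the mean of the 3 mice (horizontal axis, quantile-normalized log2 intensity) for 54 member probes, ordered by subunit, with the array kind in brackets and probes below the brightness filter marked dim. The array A probe of Mrpl50 is left out. Most probes span under 1 log2, and Mrps11 and Mrps15 have the lowest values of the 174-day mouse.

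By subunit, the large subunit genes had medians of 0.02, 0.04 and 0.03 in the 3 comparisons over 36 genes with dim probes included, and the small subunit genes -0.19, 0.17 and 0.09 over 12 genes. With entering probes only, small subunit genes numbered 4, and their median of the diet comparison turned to -0.04. In the third comparison it turned from 0.09 to -0.29. No difference between subunits was tested. Large subunit proteins with bacterial counterparts (24 genes) and those added in mitochondria (12 genes) had medians of 0.02 and -0.004 in the age comparison and 0.03 and 0.15 in the diet comparison. Small subunit proteins of these kinds (8 and 4 genes) had medians of -0.10 and -0.28 with age and 0.17 and 0.16 with diet. Mrps36, outside the ribosome, was at -0.27, 0.27 and 0.005, with levels of 8.23, 7.96 and 8.24.

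The 6 members with 2 probes each show how far single values can be trusted. Besides Mrpl50, Mrpl45 and Mrpl48, described above, these were Mrpl23, Mrps7 and Mrps17. For Mrpl23 the array A probe was at -0.39 and the dimmer array B probe at 0.47 in the diet comparison. For Mrps17 the entering probe was at 0.49 and the dimmer at -0.64, and for Mrps7, of the head of the small subunit, the dimmer probe was at 0.92 and the brighter at -0.08. As normalized, the probes of these 3 genes therefore differed in sign. After the correction for spot position described below, the Mrpl23 probes were at 0.02 and 0.004 and the Mrps7 probes at 1.36 and 0.005. Those of Mrps17 still differed in sign, at 0.36 and -0.29. The 6 genes had a median disagreement of 0.93 log2 in the diet comparison, beside 0.55 for all genes with 2 probes, and of 0.37 beside 0.41 in the age comparison.

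Differences also moved with the place of a spot in the deposited order. Across spots of an array, which are not independent, differences between mice recurred along the array. No layout of the spots is stated in these sources, and a division into 16 equal blocks was chosen from the distance at which these differences correlated. At that distance Pearson's r was 0.22 to 0.51 over the comparisons and array kinds, a description that the choice of distance favours. It was not the distance of highest correlation. At 22 spots r was higher for every comparison and array kind, at 0.26 to 0.54, and at 1 spot it was 0.15 to 0.30. A correction subtracting the median deviation of every block, and of every place inside blocks, was applied to whole arrays. The typical size of a member probe's difference fell from 0.43 to 0.31 log2 in the diet comparison and from 0.27 to 0.20 in the third, while in the age comparison it was 0.20 before and 0.22 after. For all named probes it was 0.40 and 0.29, 0.26 and 0.19, and 0.26 and 0.21.

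After this correction Mrps9 was at -0.05 in the diet comparison and 6.8e-05 in the third, and Mrps18b at -0.03 and -0.28. Mrpl42 turned from 0.62 to -0.13 in the diet comparison and moved from -0.68 to -0.26 with age, so that the calorie-restricted mouse became its lowest, and Mrpl10 moved from 0.81 to 0.24. In the diet comparison the brighter Mrpl45 probe moved from 0.62 to 0.94, its dimmer one from 1.06 to 0.98, and Mrpl52 from 0.91 to 0.99. In the third comparison Mrpl52 was at 0.85, below 2-fold. Mrpl23 turned from -0.39 to 0.02 in the diet comparison and from -0.32 to 0.22 in the third, and Mrps18a from -0.12 to 0.01 in the third. Mrps11 stayed at -1.31 with age and 1.34 with diet, whereas Mrps15 moved to -0.43 and 0.51. The median of the 22 members relative to all genes was -0.12, 0.20 and 0.14 in the 3 comparisons after the correction, beside -0.06, 0.29 and 0.20 before it. The part of spot position in the values without correction was not tested beyond this.

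**Figure D4:**
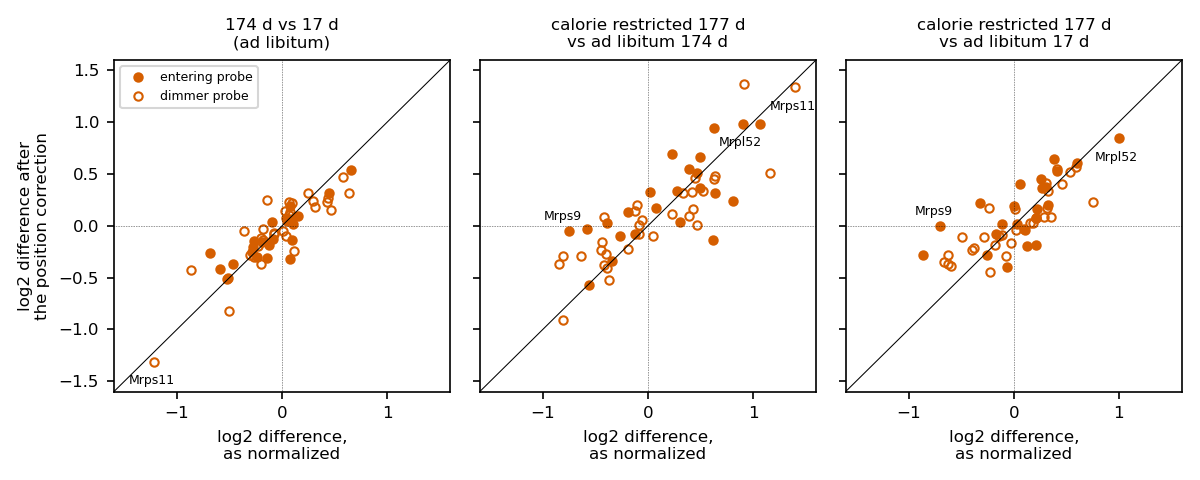
Differences of 54 member probes before (horizontal axis) and after (vertical axis) the correction for spot position, in log2, for each comparison, with entering probes filled and dimmer probes open. Mrps9 falls to near 0 on the vertical axis, whereas Mrpl52 and Mrps11 stay near the diagonal line of equal values.

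Genes that work with the mitochondrial ribosome were taken from lists of pathway members. For all genes with an entering probe, the shares 2-fold apart were 1.16% with age, 6.86% with diet and 1.58% in the third comparison. Their medians were -0.03, -0.04 and -0.09. Of 9 mitoribosome assembly genes with an entering probe (16 measured), none was 2-fold apart. The medians of these 9 were -0.13 with age, 0.46 with diet and 0.17 in the third comparison. In the diet comparison they ran from -0.40 for C1qbp to 0.79 for Mterf4, which with Nsun4 (0.30) acts on the ribosomal RNA of the mitochondrion. The dimmer probe of Mterf4 was at -0.47, and the value of Nsun4 is the midpoint of probes at -0.29 and 0.89, so the probes of both genes differed in sign. The rRNA methyltransferase Mettl15 was lowest with age (-0.65), and C1qbp highest (0.23). The 3 translation factors that entered (6 measured) had medians of 0.08, 0.31 and 0.45, and the elongation factor Tufm was at -0.14 with age and 0.59 with diet.

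The 7 genes of mitochondrial tRNA charging that entered (13 measured) had a median of 0.12 with age and -0.02 with diet. In the diet comparison they ran from -0.82 for the glutamyl-tRNA synthetase Ears2 to 0.60 for Qrsl1. With age Kars was highest (0.40) and Rars2 lowest (-0.24). Among 9 genes of mitochondrial DNA and RNA maintenance that entered (18 measured), 1 was 2-fold apart with age and with diet. The backgrounds were 1.16% with age and 6.86% with diet. This gene was Grsf1, which binds RNA in mitochondrial RNA granules, at -1.02 with age and 1.23 with diet on a single probe. Tefm was highest with age (0.32), Mterf1a lowest with diet (-0.90, where its dimmer probe was at 0.76), and Tfam, which packages mitochondrial DNA, was at -0.17 and -0.01. Of mitoribosome proteins under other names only Dap3 was measured, by a dim probe at -0.11, -0.23 and -0.34.

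Promoters are shown because some members hold motifs of known regulators there, which their choice did not use. RefSeq promoter windows of 300 bases, 250 before and 50 after the start, were matched for 43 of the 49 genes (48 windows, assembly GRCm38.p6) and searched on both strands. The ETS core CCGGAAG, bound by GABPA among others, was in 25% of the member windows and in 8.86% of all 32851 windows. The NRF1 motif, of a regulator of nuclear genes for mitochondria, was in 16.7% and 4.60%. The YY1 motif, which contains ATGG, was in 8.33% and 0.986%. Most member windows hold none of a given motif, no enrichment was tested, and matches of letters were not shown to be binding sites. In the livers, the 12 genes with the ETS core and the 31 without it had medians of -0.04 and -0.13 in the age comparison and -0.01 and 0.23 in the diet comparison. For the 8 genes with the NRF1 motif and the 35 without, the medians were 0.07 and -0.14 with age and -0.05 and 0.27 with diet. For the 4 genes with the YY1 motif and the 39 without, they were -0.35 and -0.08 with age and 0.41 and 0.05 with diet. These differences were not tested.

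The 250 bases before the start are given for 3 of the 4 genes that passed 2-fold in any comparison, Mrpl50 (chr4:49521084-49521333, minus strand), Mrpl52 (chr14:54426659-54426908, plus strand) and Mrps11 (chr7:78782881-78783130, plus strand). They run 5′ to 3′ on the gene's strand, with a motif match in capitals, which is the ETS core in Mrpl52 and YY1 in Mrps11, both on the opposite strand.
Mrpl50: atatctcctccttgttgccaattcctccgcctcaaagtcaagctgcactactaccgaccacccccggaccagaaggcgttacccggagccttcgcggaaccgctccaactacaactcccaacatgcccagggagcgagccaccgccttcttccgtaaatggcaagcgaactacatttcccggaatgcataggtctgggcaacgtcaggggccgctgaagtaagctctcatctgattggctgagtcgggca
Mrpl52: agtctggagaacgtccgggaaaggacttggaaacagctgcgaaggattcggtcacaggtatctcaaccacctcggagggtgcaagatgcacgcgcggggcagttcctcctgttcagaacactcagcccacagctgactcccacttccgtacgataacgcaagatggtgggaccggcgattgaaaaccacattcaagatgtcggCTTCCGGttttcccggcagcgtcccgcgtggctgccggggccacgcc
Mrps11: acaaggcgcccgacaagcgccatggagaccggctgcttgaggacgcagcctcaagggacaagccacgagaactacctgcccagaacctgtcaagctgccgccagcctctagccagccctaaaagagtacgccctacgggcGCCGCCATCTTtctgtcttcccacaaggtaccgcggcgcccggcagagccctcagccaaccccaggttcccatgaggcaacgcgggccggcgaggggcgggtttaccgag
The Mrpl50 stretch holds none of the 3 motifs as spelled, and nor does that of Mrps15, the gene not shown. This says only that these letters are not in them.

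**Figure D5:**
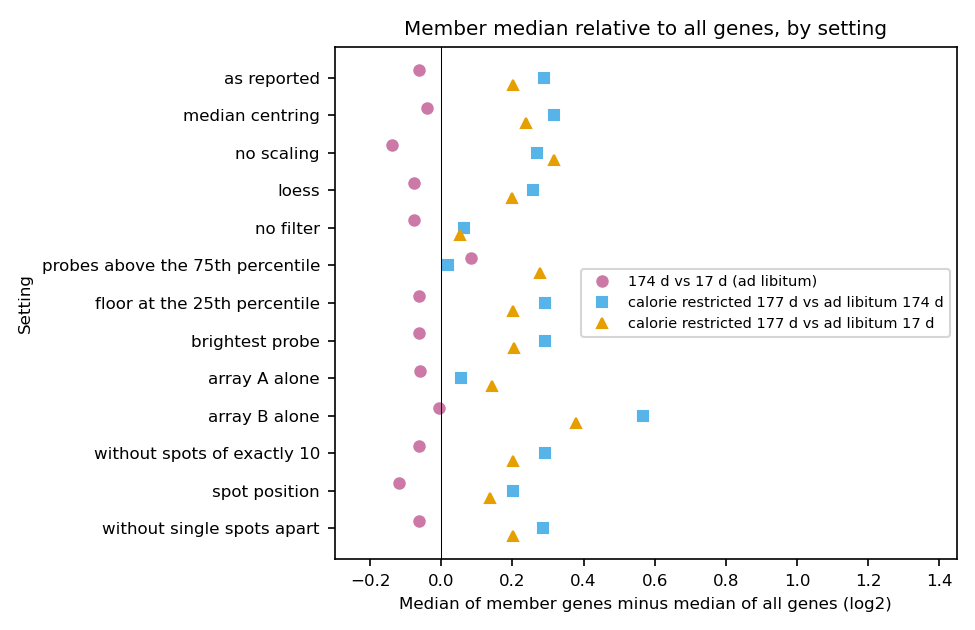
Median difference of the member genes minus the median of all genes (horizontal axis, log2) under each setting of the processing (rows), for the 3 comparisons. Values for diet run from 0.02 to 0.57 and those for the third comparison from 0.05 to 0.38, all above 0, whereas those for age lie between -0.14 and 0.08.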

How the data were processed

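Liver RNA of 3 mice was measured on arrays A and B, 6 arrays of 8448 spots each. From their range, the deposited numbers were taken as linear intensity. How the authors made these intensity values, including background treatment and scaling, is not given in the sources used here. Of 16896 spots, 9663 had 1 gene symbol in GEO's platform annotation, 436 several and 6797 none. All 49 member symbols equal those of RefSeq for the same gene numbers.

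Low intensities were raised to the array's 5th percentile, converted to log2 and quantile-normalized, array A and array B apart. Probes above the 50th percentile of mean level entered, and the median over entering probes stood for the gene. The procedure was tested on simulated data. The number of arrays limits the precision. The members, lists, motifs and alternatives were chosen with earlier results of these data known. Genes named were all probes of Mrpl50, members at least 2-fold apart, the 5 highest and 5 lowest per comparison, members with 2 probes, and the extremes of each pathway list. Mrps11, Mrps15, Mrpl20, Mrpl44, Mrps10, Mrps36, Nsun4, Tfam and Dap3 were named after their values were seen. Alternatives concerned scaling, filter, floor, probe summary, array kind, spots of exactly 10, spot position, single spots apart and a 1.5-fold threshold. Python 3.11.15, numpy 2.4.6, pandas 2.3.3, statsmodels 0.14.6 and matplotlib 3.10.9 were used.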

Additional observations from a re-analysis of the deposited data

How the results depend on the processing

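The number of members past 2-fold, 1 in each comparison as reported, rests on single probes. In the age comparison it was 22 without scaling, 2 without the brightness filter, and 4 at 1.5-fold. It was 0 above the 75th percentile, on array B alone or without single spots apart. Each of these settings leaves out the array A spot of Mrpl50, at percentile 72.8, so this 0 was fixed by the choice of probes. The same holds for the 0 with diet. In the diet comparison it was 4 with median centring, 22 without scaling, 3 without the filter, 7 at 1.5-fold, and 0 above the 75th percentile, on array B alone or without single spots apart. Against the 17-day mouse it was 3 at 1.5-fold in the calorie-restricted mouse, and 0 with median centring, without scaling, after loess, above the 75th percentile, on array A alone or after the position correction. Mrpl52 has 1 probe, on array B at percentile 68.8, so the 0 above the 75th percentile and on array A alone was fixed likewise. Above the 75th percentile 10 member genes remained, on array A alone 15 and on array B alone 8. Without scaling the backgrounds were 99.8%, 99.1% and 3.57%, and with median centring the diet background was 17.1%.

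The members' median relative to all genes moved by more than 0.1 log2 from -0.06 to 0.083 with age above the 75th percentile. With diet it moved from 0.29 to 0.064 without the filter, 0.019 above the 75th percentile, 0.054 on array A and 0.57 on array B. In the third comparison it moved from 0.20 to 0.32 without scaling, 0.054 without the filter and 0.38 on array B. The cause was not tested. Of 315 values for named members under 12 alternatives, 226 moved by 0.1 log2 or less and 89 by more. Alternatives that only choose among probes cannot change a gene with 1 probe, and 43 of the 49 members have 1. Part of the 226 was therefore fixed in advance, and the count does not measure stability. The sign turned in 17 of the 315 values, of which 9 were without scaling, 6 after the position correction, 1 with median centring and 1 without the filter. Without scaling Mrpl48 was at -2.62 with age and 2.79 with diet, and Mrps9 at 2.48 with diet. Neither Mrpl50 in the age and diet comparisons nor Mrpl52 in the third was among them. Mrpl50 ran from 0.10 to 8.94 with age. No paired analysis was possible because each group held 1 mouse. Dim spots near the background limit what can be said of the 27 members without an entering probe.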

Other observations

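Some partners of the mitochondrial ribosome had dim probes only and were past 2-fold in the diet comparison, which uses the 174-day mouse. The single probe of Sars2, the mitochondrial seryl-tRNA synthetase, was at 3.37 log2 with age and -4.09 with diet, and that of Tsfm, an elongation factor, at 1.19 and -1.19. Hars2 and Fastkd5 were at -1.04 and -1.07 with diet. These spots lie below the brightness filter, each is the only probe of its gene, and the names were chosen after the values were seen. Tsfm was at 0 in the third comparison, as spots raised to the floor in both mice would be. The background in the diet comparison, dim probes included, was 7.44% of all named genes. The lists of translation factors, tRNA charging, assembly and DNA and RNA maintenance held 6, 13, 16 and 18 measured genes. Of these, 3, 7, 9 and 9 had an entering probe.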
